A study of Mus musculus with 14 samples.

Results

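The step described here is that of embryoid bodies (EBs) labelled *Taf9b* KO from day 2 to day 4 of motor neuron differentiation, which rests on 2 of the 14 samples of the series, 1 RNA-seq library at each day. The libraries were chosen by their labels alone. Both are labelled with the genotype TAF9B -/- on a C57BL/6 background and with 1 clone, Taf9b_BG10, a male ES cell line in which a *LacZ-Neo* cassette stands in place of the coding exons of *Taf9b* on the X chromosome. The libraries labelled wild type are given as the JM8 clone of the same background. They are given at the same days, only to show where the step differs. The ES cells of both lines were kept on feeder layers of mouse embryonic fibroblasts, and all EBs were differentiated with retinoic acid and the smoothened agonist SAG. The ratio of day 4 to day 2 was taken for each locus across 2 separately normalized tables of FPKM values (fragments mapped to a transcript, scaled by its length and by the size of the library), and was centred so that the median locus above 1 FPKM at both days stands at 0 on the log2 scale. With 1 library per side no spread between replicates exists, and no difference below was tested. "Rose" and "fell" stand for more than 2-fold by the centred ratio.

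Retinoic acid enters cells, is bound by carrier proteins and acts through nuclear receptors that sit on direct repeats of a short half-site in DNA. In the early embryo it turns on its own receptor gene and its own degrading enzymes, and it opens the *Hox* clusters from their 3′ ends, which gives the neural tube its hindbrain and cervical identity. Sonic hedgehog, which SAG mimics by switching on the receptor Smoothened, then sets ventral identities, among them the *Olig2* progenitors from which motor neurons arise. ES cells on this path leave the naive state, pass through an epiblast-like state and give up the pluripotency factors.

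*Taf9b* (chromosome X, 103402213 to 103416497 in mm9), the gene targeted in this clone, was at 4.08 FPKM at day 2 and 4.27 FPKM at day 4 in the libraries labelled KO. It was at 0.516 and 1.96 FPKM in the libraries labelled WT. The same order held in ES cells, at 3.06 FPKM labelled KO and 0.537 FPKM labelled WT, and at day 6, at 4.01 and 1.37 FPKM. The targeted gene was thus higher in the library labelled KO in all 4 tables, against the labels. Any difference drawn below between libraries labelled KO and WT carries this limit. Whether the columns labelled KO and WT are exchanged in the tables was not tested. If they are, the step described here is that of the other line. The tables give levels as FPKM alone, and how deeply each library was sequenced is not known.

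Of 23109 loci joined between both days, 12620 passed 1 FPKM at day 2 or day 4 labelled KO and had a usable status in both tables. From day 2 to day 4, 1808 of them rose (14.3%) and 1056 fell (8.37%), and 631 rose and 310 fell by more than 4-fold. In the libraries labelled WT, 1775 of 12531 loci rose (14.2%) and 1873 fell (14.9%). The number of rising loci was thus close in both lines, and fewer loci fell in the libraries labelled KO. Scaling both libraries to an equal sum of FPKM in place of the centring moved the median ratio to 0.223 and the split to 2368 rising and 783 falling loci, so that 75.2% of those past 2-fold rose in place of 63.1%. A gene below 1 FPKM at day 2 enters these counts only if it is above 1 FPKM at day 4 and tends to stand past 2-fold by that alone, so the list members that stayed below 1 FPKM are counted below too. At day 4 the level labelled KO was above that labelled WT in 6275 of the 12620 loci. Each count of list members stands against these shares of all loci, also where they are not repeated.

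**Figure D1:**
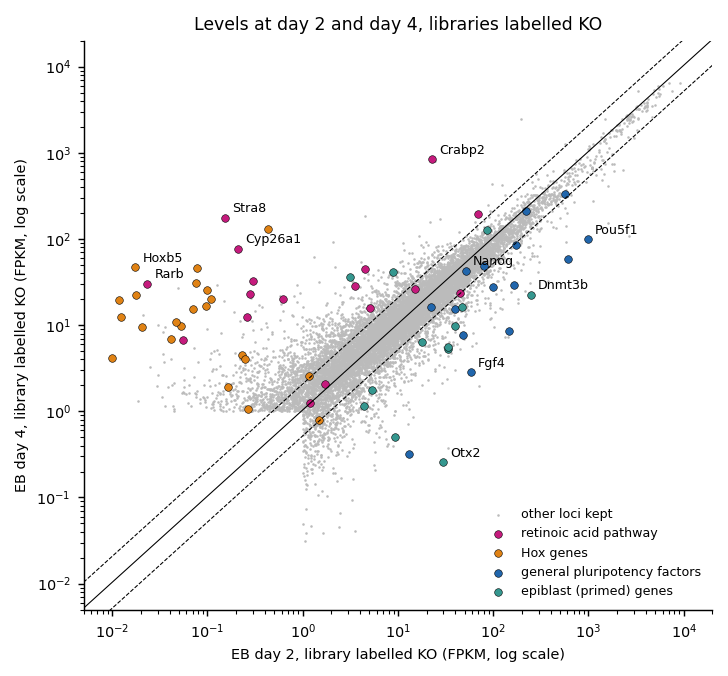
Each point is 1 locus of the libraries labelled KO, with its FPKM at day 2 on the x axis and at day 4 on the y axis, both on log scales, for loci above 1 FPKM in at least 1 library and at 0 in neither. The solid line is the centre of the ratios and the dashed lines mark 2-fold. Most retinoic acid and *Hox* genes shown stand above the lines, *Stra8* at 0.153 and 177 FPKM, while general pluripotency and epiblast genes lie mostly below, *Otx2* at 30.04 and 0.257 FPKM.

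The genes of retinoic acid signalling and breakdown rose steeply between day 2 and day 4. Of 20 genes on the list, 17 passed the level of 1 FPKM, of which 13 rose and none fell, against 14.3% of all loci rising, and their median ratio was 4.95 beside 0.04 over all loci. That median was 3.01 with 1 FPKM added to both values, 3.11 over genes with status OK in both tables and 4.10 with no filter on low values. *Rarb*, the receptor gene that retinoic acid induces directly, went from 0.0233 to 30.2 FPKM (log2 ratio 10.28), and *Cyp26a1*, the enzyme that degrades retinoic acid, from 0.209 to 77.5 FPKM (8.48). Both were among the 10 highest genes at day 4 of those below 1 FPKM at day 2. Their promoter windows are shown here because both carry the same element, a direct repeat of a half-site with 5 bases between, searched on both strands. The half-sites searched were AGGTCA and also AGTTCA, with the variants GGGTCA and also GGTTCA, in any pairing. The sequences are RefSeq's (GRCm38.p6), written on the gene's own strand up to the start at most, with the half-sites in capitals.
Rarb: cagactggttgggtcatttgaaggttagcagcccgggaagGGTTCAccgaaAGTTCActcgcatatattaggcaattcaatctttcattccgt
Cyp26a1: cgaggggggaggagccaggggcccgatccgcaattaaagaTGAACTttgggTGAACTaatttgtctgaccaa

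The *Rarb* stretch of 93 bases is chr14:16575477-16575569 on the minus strand, and its repeat runs from base -53 to -37 before the start. That of *Cyp26a1*, 72 bases at chr19:37697736-37697807 on the plus strand, holds the repeat on the opposite strand from base -32 to -16. Such a repeat was found in 32 of 32851 promoter windows around RefSeq starts (0.0974%), those of 31 genes. Of these, 20 genes were not in the tables, 6 were below 1 FPKM at both days, 3 rose, 1 fell and 1 stayed within 2-fold. Beside *Rarb* and *Cyp26a1* the riser was *Ppbp*, a chemokine gene listed at 0 at day 2 and at 1.97 FPKM at day 4. The gene that fell was *Blvrb*, biliverdin reductase B, at 106.9 and 22.9 FPKM. Of the 20 retinoic acid genes 15 have a window in that set, and no other of them holds the repeat, which says only that these letters are not in those windows. The same windows were also searched for the repeat with 2 bases between, found for 84 genes, and for GACCACCCA, found for 78 genes. No gene of any list was among these. The matches are a description and do not show binding.

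Other genes of the pathway moved with them. *Stra8*, a retinoic acid induced gene known from germ cells entering meiosis, had the highest day 4 level of all genes below 1 FPKM at day 2, 0.153 FPKM at day 2 and 177 FPKM at day 4 (10.13). *Crabp2*, the protein that carries retinoic acid to the nucleus, went from 22.6 to 843 FPKM (5.17), and *Crabp1*, the related cytosolic carrier, from 69.6 to 194 FPKM (1.42). *Dhrs3*, which turns retinal back to retinol, went from 0.624 to 19.99 FPKM. *Cyp26b1*, a second degrading enzyme, went from 0.0555 to 6.78 FPKM. *Stra6*, a membrane receptor for retinol binding protein, went from 0.261 to 12.3 FPKM. These carriers, degrading enzymes and uptake gene were therefore all higher at day 4. The homeodomain partners of the Hox proteins also rose, *Meis1* from 0.282 to 22.96 FPKM and *Meis2* from 0.298 to 32.7 FPKM.

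The receptor genes other than *Rarb* behaved less uniformly. *Rxra*, the common partner receptor, rose from 5.07 to 15.8 FPKM, *Rara* stood at 15.2 and 26.5 FPKM (0.75), and *Rarg* at 45.3 and 23.8 FPKM (-0.98). *Aldh1a2*, the enzyme that makes retinoic acid in the embryo, stood at 1.19 and 1.26 FPKM. The 3 list members that stayed below 1 FPKM at both days were *Aldh1a3*, *Cyp26c1* and *Rxrg*. In the libraries labelled WT, 13 of 17 rose with a median of 4.40. *Cyp26a1* was already at 3.89 FPKM there at day 2, so that its ratio was 4.54 against 8.48 in the KO-labelled step, and *Crabp2* reached 1800.1 FPKM at day 4.

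*Hox* genes, which encode the factors that pattern the body axis, rose in all 4 clusters, mainly at their 3′ ends. No gene of paralog groups 1 to 8 was above 1 FPKM at day 2, and 19 of 23 were above it at day 4, all of which rose. All 15 genes of groups 1 to 5 rose, with a median day 4 level of 19.4 FPKM and the lowest at 1.94 FPKM (*Hoxd1*). Of the 8 genes of groups 6 to 8, 4 rose, among them *Hoxb6* from 0.0959 to 16.9 FPKM and *Hoxb8* from 0.0701 to 15.5 FPKM. Of the 16 genes of groups 9 to 13, 3 were above 1 FPKM at either day, and *Hoxb9* was the highest at day 4 with 4.06 FPKM.

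*Hoxb1*, a hindbrain gene and an early retinoic acid target, went from 0.0762 to 30.8 FPKM (8.61), *Hoxb2* from 0.0775 to 46.5 FPKM and *Hoxb5* from 0.0174 to 47.3 FPKM (11.36), the largest measured ratio of the list. Genes of the other clusters came on as well, *Hoxc4* from 0.0177 to 22.1 FPKM, *Hoxc5* from 0.0119 to 19.4 FPKM and *Hoxd4* from 0.0123 to 12.4 FPKM. Of all 39 genes 22 passed the level, 21 rose and none fell, and the median was 7.78. It was 3.51 over all genes with a ratio and 1.09 over the 3 of 22 genes with status OK in both tables. *Hoxd13*, a posterior gene, stood at 1.48 and 0.799 FPKM.

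The WT-labelled step had 19 rising of 19 and a median of 9.57. At day 4 the summed level of groups 1 to 5 was 398 FPKM in the library labelled KO and 576 FPKM in the library labelled WT. The level labelled KO was the higher one in 4 of these 15 genes, among them *Hoxb1* at 30.8 against 12.6 FPKM. *Hoxd4*, at 12.4 against 45.9 FPKM, and *Hoxa4*, at 6.93 against 27.9 FPKM, stood on the other side. In groups 9 to 13 the level labelled KO was the higher one in 15 of 16 genes, with sums of 10.4 and 4.27 FPKM. Only 2 of these 16 genes were above 1 FPKM at day 4 labelled KO, and their median was 0.196 FPKM. That count thus compares mostly values near 0.

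**Figure D2:**
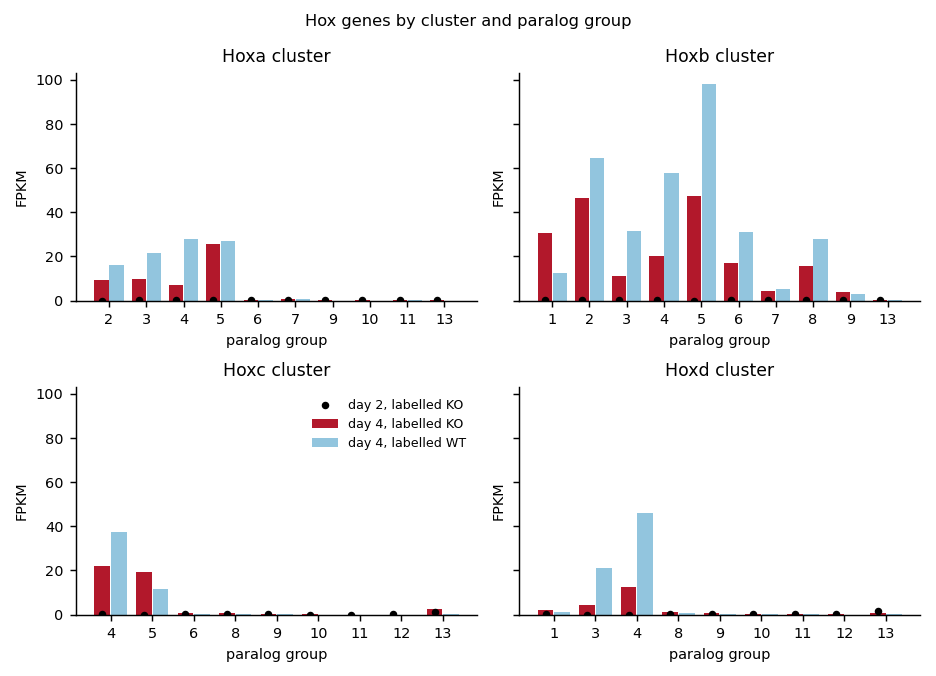
Bars give FPKM at day 4 by paralog group in each *Hox* cluster, for the genes reported here, in the library labelled KO (red) and that labelled WT (blue), and black points give day 2 labelled KO. Levels are highest in groups 1 to 5, with *Hoxb5* at 47.3 FPKM labelled KO, and every gene of groups 9 to 13 is at or below 4.06 FPKM labelled KO.

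Sonic hedgehog genes split in the libraries labelled KO: receptors and transducers rose, and the readout *Gli1* did not pass 2-fold. Of 14 pathway genes 11 passed the level, 8 of them rose and none fell, with a median of 1.65. Among the rising genes were *Ptch1*, the receptor for the ligand and itself a target, from 7.66 to 26.5 FPKM (1.74), *Smo*, which SAG binds, from 10.9 to 30.9 FPKM (1.45), the co-receptors *Gas1* from 4.81 to 17.3 FPKM and *Cdon* from 2.70 to 9.66 FPKM, and the effectors *Gli2* from 0.580 to 2.50 FPKM and *Gli3* from 3.36 to 10.97 FPKM. *Gli1*, the effector gene most used as a readout of the pathway, stood at 7.64 and 6.94 FPKM (-0.19). *Shh* itself, *Hhip* and *Nkx2-2* stayed below 1 FPKM at both days.

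In the WT-labelled step *Gli1* went from 4.67 to 36.4 FPKM (2.87) and *Ptch1* from 9.37 to 92.6 FPKM (3.22). *Gli1* is among the 10 genes above 1 FPKM in all 4 libraries whose KO-labelled step stood furthest below the WT-labelled one. The day 2 levels of both genes lay closer together between the lines than their day 4 levels. *Foxa2*, a floor plate and endoderm factor, rose in both lines, from 0.125 to 5.08 FPKM labelled KO and from 1.79 to 10.1 FPKM labelled WT.

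Most neural tube progenitor factors rose, to lower levels than in the other line. Of 24 genes 16 passed the level, 13 rose and 3 fell, with a median of 3.03, which was 1.86 with 1 FPKM added and 2.15 with status OK in both tables. The pan-neural factors *Sox1* from 0.229 to 7.31 FPKM and *Sox3* from 8.94 to 41.2 FPKM rose, as did *Pax6*, a factor of the intermediate and ventral tube, from 0.876 to 29.5 FPKM (5.02). *Irx3* and *Irx5*, of the same intermediate domain, went from 0.933 to 23.7 FPKM and from 0.488 to 4.99 FPKM. *Dbx1*, which marks interneuron progenitors, was listed at 0 at day 2 and was at 12.9 FPKM at day 4. *Nes*, the progenitor filament nestin, went from 10.03 to 23.3 FPKM.

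Ventral factors had low levels. *Nkx6-1* went from 0.185 to 2.67 FPKM, *Nkx6-2* from 3.50 to 8.67 FPKM and *Nkx2-9* from 1.39 to 9.80 FPKM, while *Nkx2-2* stayed below 1 FPKM. *Olig2*, the factor of motor neuron progenitors, fell from 12.6 to 4.67 FPKM (-1.49), with its neighbour *Olig1* from 24.5 to 4.91 FPKM (-2.37). *Sox2*, shared by pluripotent and neural cells, fell from 173 to 85.7 FPKM (-1.07).

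At day 4 the level labelled KO was above that labelled WT in 2 of the 16 genes, *Sox2* and *Dbx1* at 12.9 against 8.82 FPKM. *Olig2* differed in direction, being at 11.4 and 59.9 FPKM in the WT-labelled step (2.31). *Nkx6-1* reached 30.2 FPKM there, *Pax6* 109 FPKM, *Sox1* 30.7 FPKM and *Irx3* 69.99 FPKM. At day 2 none of these 5 genes differed between the lines by as much as at day 4, *Pax6* for example being at 0.876 and 0.771 FPKM. In bulk RNA, fewer cells of a kind and less RNA of a gene per cell cannot be told apart.

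Notch genes and proneural factors also had lower day 4 levels than in the other line, in the members named here. *Hes5*, the Notch target of neural progenitors, went from 0.314 to 3.61 FPKM labelled KO and from 0.185 to 71.0 FPKM labelled WT. *Dll1*, a Notch ligand of newborn neurons, rose from 4.62 to 9.74 FPKM, and *Dll3*, a ligand that dampens Notch signalling, fell from 5.11 to 1.77 FPKM (-1.59), while labelled WT it stood at 5.005 and 6.54 FPKM. *Hes1*, a further target, rose to 40.9 FPKM labelled KO and 47.5 FPKM labelled WT. Of 17 Notch genes 15 passed the level, 5 rose and 1 fell labelled KO, and 11 of 16 rose and none fell labelled WT. Of all loci 14.3% rose and 8.37% fell labelled KO, and 14.2% rose and 14.9% fell labelled WT.

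Of 16 proneural factors, which commit progenitors to a neuronal fate, 7 passed the level, and 3 rose, among them *Neurog2* from 0.0570 to 1.62 FPKM and *Neurog1* from 0.0536 to 1.63 FPKM. Labelled WT 7 of 9 rose, a set that its own day 4 levels admit. The median labelled KO was 0.64 and turned to -2.09 above 5 FPKM and to -0.74 with status OK in both tables. Labelled WT *Neurog2* and *Neurog1* were at 15.8 and 8.96 FPKM at day 4. *Hes6*, a factor that promotes neuronal differentiation, fell from 44.6 to 10.9 FPKM (-2.09), and *Insm1*, a factor of newborn neurons, stood at 3.88 and 2.50 FPKM against 1.98 and 6.72 FPKM labelled WT.

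Neuronal genes moved in both directions in this window. Of 21 genes 18 passed the level, with 4 rising, 5 falling and a median of -0.20, beside 14.3% of all loci rising and 8.37% falling. *Tubb3*, neuronal tubulin, fell from 41.7 to 18.01 FPKM (-1.27) and *Stmn2*, a growth cone protein, from 42.3 to 11.8 FPKM (-1.89), and both also fell labelled WT, with ratios of -1.27 and -3.05. *Gap43*, another growth cone gene, rose from 6.43 to 18.5 FPKM, and *Nsg2* from 0.815 to 6.68 FPKM. Of 10 motor neuron factors 8 stayed below 1 FPKM, *Isl1*, *Isl2* and *Lhx3* among them. *Mnx1*, which specifies motor neurons and which endodermal cells also use, went from 0.310 to 5.01 FPKM, against 2.32 FPKM at day 4 labelled WT. For EBs that the labels call neuronal progenitors at day 4, progenitor factors had thus risen, *Olig2* had not, and most motor neuron factors were not above 1 FPKM.

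**Figure D3:**
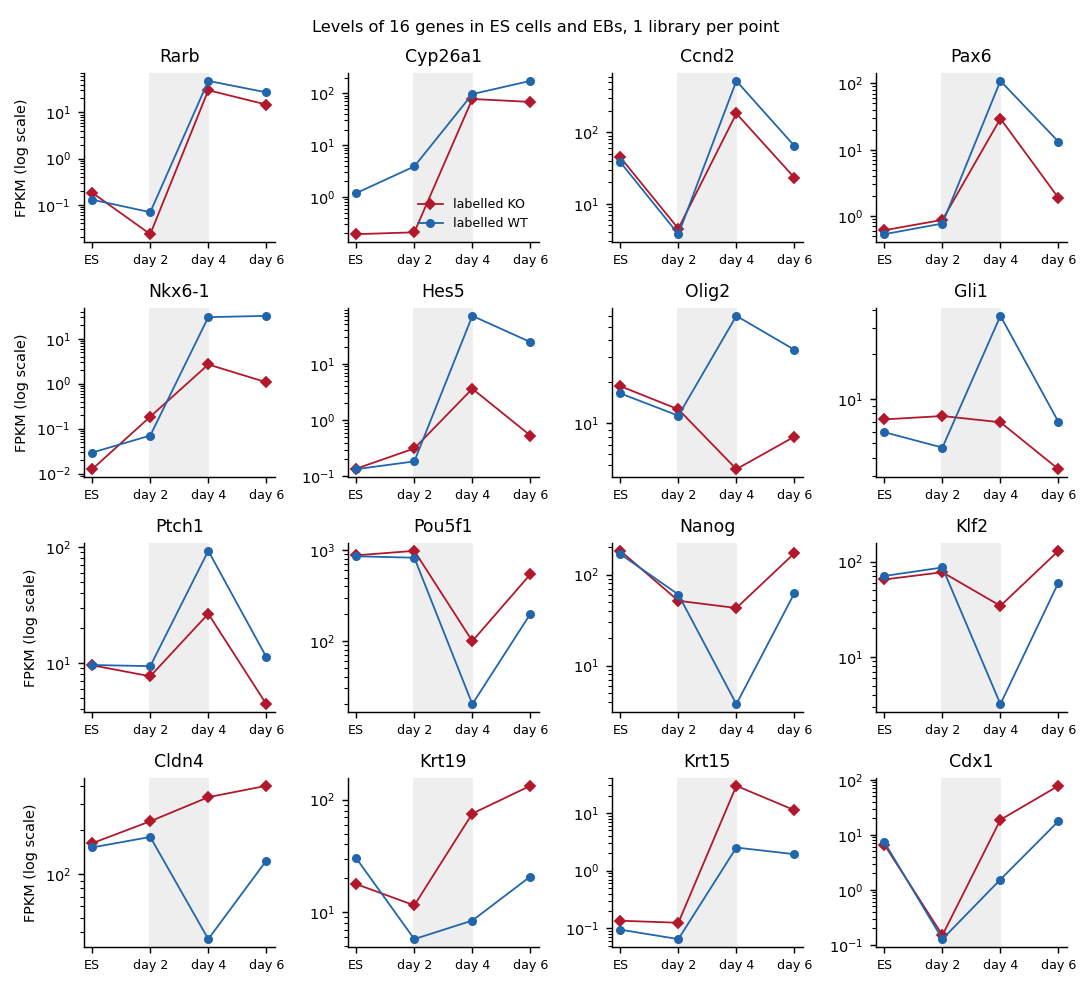
FPKM on log scales of 16 genes in ES cells and in EBs of day 2, 4 and 6, 1 library per point, for libraries labelled KO (red diamonds) and WT (blue circles), with the step from day 2 to day 4 shaded and tables normalized separately by stage. *Rarb* and *Cyp26a1* each end the step at levels less than 2-fold apart between the lines, *Olig2* and *Gli1* part after day 2, and *Nanog* and *Klf2* are higher labelled KO at day 4.

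Most epiblast genes, which mark the primed state between naive pluripotency and the germ layers, fell. Of 13 genes, all above 1 FPKM on at least 1 day, 10 fell, against 8.37% of all loci, and 2 rose, with a median of -1.98. *Otx2*, an epiblast and anterior head factor, went from 30.04 to 0.257 FPKM (-6.93), the largest measured fall among the lists. *Fgf5*, the ligand most used to mark the epiblast, went from 9.27 to 0.501 FPKM (-4.26), and *Dnmt3b*, a de novo DNA methyltransferase, from 249 to 22.4 FPKM (-3.53). *Pou3f1*, from 33.3 to 5.65 FPKM, and *Zic2*, from 39.8 to 9.87 FPKM, fell as well.

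The WT-labelled step gave the same direction in these genes, with 11 falling and a median of -3.29. The pair that rose in both lines were *Sox3* and *Cdh2*, N-cadherin, from 3.15 to 36.4 FPKM, genes that neural progenitors also use. Head factors did not follow: of 16 forebrain and midbrain genes 13 were below 1 FPKM at both days or had no locus, and of the other 3 *Lhx2* rose from 0.332 to 1.86 FPKM and *Otx2* and *Hesx1* fell, the latter from 2.58 to 0.357 FPKM. The median of these 3 genes was -2.91, and with no filter on low values that of the list was 1.20.

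Most pluripotency genes fell in the libraries labelled KO, to day 4 levels above those of the other line. Of 15 general pluripotency factors 10 fell and none rose, with a median of -1.90 labelled KO and -4.09 labelled WT, and at day 4 14 of 15 were higher labelled KO. *Pou5f1* (Oct4), the core factor, went from 987 to 99.1 FPKM (-3.37) and labelled WT from 829 to 19.9 FPKM (-5.46). *Nanog*, its partner, stood at 51.5 and 42.9 FPKM (-0.32) and fell from 60.4 to 3.77 FPKM (-4.09) labelled WT. *Nanog* is among the 10 genes above 1 FPKM in all 4 libraries whose KO-labelled step exceeded the WT-labelled one most, with *Esrrb*, *Ooep*, *Tdh* and *Lefty1*.

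The largest falls of the list were those of *Foxd3*, from 12.99 to 0.316 FPKM (-5.42), *Fgf4*, the ES cell Fgf ligand, from 57.96 to 2.82 FPKM (-4.41), and *Tdgf1* (Cripto), the Nodal co-receptor, from 148 to 8.62 FPKM (-4.16). *Utf1*, a chromatin protein of ES cells, fell from 606 to 58.8 FPKM (-3.42). *Lin28a*, which blocks let-7 and is also used by early neural progenitors, held at 222 and 212 FPKM, and *Sall4* at 79.9 and 49.1 FPKM (-0.76).

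Of 16 naive factors, which hold ES cells in the ground state, 11 fell and 1 rose, *Tet2* from 1.56 to 3.24 FPKM, just past the limit. The median was -1.44, against -4.18 labelled WT with 15 falling. *Klf2* fell from 77.5 to 34.4 FPKM (-1.23) and *Esrrb* from 60.3 to 22.5 FPKM (-1.48), while *Tfcp2l1* stood at 10.8 and 10.6 FPKM and *Tbx3* at 8.39 and 7.35 FPKM. Labelled WT the day 4 levels of these 4 genes were 3.20, 1.53, 1.19 and 0.913 FPKM. At day 4 all 16 genes were higher labelled KO, with a summed level of 795 against 103 FPKM, and at day 2 the sums were 2336 and 2368 FPKM.

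These levels did not go on falling: at day 6 the libraries labelled KO held *Pou5f1* at 543 FPKM, *Nanog* at 172 FPKM and *Esrrb* at 86.9 FPKM, and those labelled WT 198, 62.5 and 26.9 FPKM. Day 4 was therefore the lowest of the 4 stages for these 3 genes in both lines. Markers of the fibroblast feeder layer moved along with them. The 18 feeder markers, collagens and *Thy1* among them, ranged from 0.313 to 31.2 FPKM at day 2 and from 1.13 to 15.4 FPKM at day 4 labelled KO, with 11 falling, 1 rising and a median of -1.11. Labelled WT they ranged from 0.378 to 21.2 FPKM and from 0.0565 to 10.3 FPKM, with 14 falling and 11 of 18 below 1 FPKM at day 4, *Col3a1*, *Thy1* and *Lum* among them. Their summed level at day 4 was 81.4 FPKM labelled KO and 24.9 FPKM labelled WT, and at day 6 376 and 149 FPKM. Their part in the pluripotency results was not tested.

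The signals that hold the epiblast split. Several Fgf targets fell, among them *Spry4* from 17.99 to 2.02 FPKM (-3.21), *Etv5* from 91.8 to 17.3 FPKM (-2.46) and *Dusp6* from 66.9 to 19.5 FPKM (-1.83), feedback inhibitors and effectors of Fgf signalling. The inhibitors *Spry1*, at 14.3 and 8.93 FPKM, and *Spred1*, at 24.7 and 21.6 FPKM, did not pass 2-fold. Of 16 Fgf genes above the level 8 fell and 4 rose, the risers being the ligands *Fgf15* from 4.09 to 20.3 FPKM and *Fgf3* from 0.638 to 4.54 FPKM and the receptors *Fgfr2* from 2.51 to 13.3 FPKM and *Fgfr3* from 0.745 to 4.38 FPKM. Labelled WT 10 fell, and the median was -3.10 against -1.24. Of 14 Nodal pathway genes above the level 3 fell and 4 rose, beside 8.37% and 14.3% of all loci. *Lefty1*, a Nodal target and inhibitor, stood at 52.6 and 43.01 FPKM labelled KO and fell from 33.7 to 1.80 FPKM labelled WT, and *Nodal* itself stood at 24.8 and 14.1 FPKM against a fall from 15.9 to 1.08 FPKM.

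Most Wnt genes above the level rose in the libraries labelled KO. Of 24 genes 19 passed the level in each line, 13 rose and 1 fell labelled KO, and 7 rose and 6 fell labelled WT, with medians of 1.56 and 0.43. The ligands *Wnt3* from 0.707 to 4.10 FPKM, *Wnt4* from 1.10 to 3.66 FPKM, *Wnt9a* from 1.74 to 5.12 FPKM and *Wnt11* from 0.329 to 2.07 FPKM rose, where the levels labelled WT at day 4 were 0.753, 0.528, 1.21 and 0.342 FPKM. The target genes *Axin2* from 1.32 to 5.48 FPKM and *Sp5* from 0.145 to 1.59 FPKM rose too, the day 2 level of both being lower than labelled WT (3.16 and 1.33 FPKM). *Cdx1*, a posterior factor that both Wnt and retinoic acid induce, went from 0.149 to 18.8 FPKM (6.92) labelled KO and from 0.127 to 1.54 FPKM labelled WT. *Lef1* was the gene that fell, from 4.36 to 1.15 FPKM.

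Several targets of Bmp signalling rose in both lines, *Id1* from 7.40 to 23.3 FPKM, *Id2* from 4.83 to 33.6 FPKM and *Id3* from 19.7 to 92.8 FPKM labelled KO, the Id proteins being inhibitors of neuronal bHLH factors. Labelled WT the 3 genes reached 68.96, 64.2 and 273 FPKM. *Bmp7* rose from 4.17 to 19.7 FPKM and *Smad6*, a feedback inhibitor, from 1.03 to 5.35 FPKM. The related inhibitor *Smad7* fell in both lines, from 14.1 to 5.23 FPKM labelled KO and from 10.5 to 1.33 FPKM labelled WT, and so did the ligand *Gdf3*, from 48.5 to 7.78 FPKM labelled KO. *Id4*, of the same family, fell in both lines, from 3.81 to 1.03 FPKM labelled KO and from 3.65 to 1.22 FPKM labelled WT. Of 14 genes above the level 7 rose and 3 fell labelled KO, and 6 rose and 8 fell of 14 labelled WT, with medians of 0.77 and -1.37. The first was 2.19 above 5 FPKM and 0.12 with no filter on low values.

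Most epithelial genes stood higher at day 4 labelled KO than labelled WT. Of 24 simple keratins and junction genes 23 passed the level, 4 rose, 4 fell and 15 stayed within 2-fold, where 14.3% of all loci rose and 8.37% fell, with a median of -0.09. Labelled WT 18 of 23 fell, with a median of -2.03. At day 4 22 of 23 were higher labelled KO. *Cdh1*, E-cadherin, stood at 135 and 103 FPKM (-0.45) and fell from 143 to 27.8 FPKM labelled WT. *Cldn4*, a tight junction claudin, stood at 229 and 334 FPKM (0.49) and fell from 179 to 35.8 FPKM labelled WT. *Krt19* rose from 11.5 to 75.3 FPKM (2.65), *Krt7* from 5.49 to 16.1 FPKM and *Cldn3* from 20.6 to 49.7 FPKM. *Krt8* and *Krt18*, the keratin pair of simple epithelia, stood at 66.99 and 107 FPKM and at 85.3 and 128 FPKM, and reached 441 and 484 FPKM at day 6.

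*Krt15*, a keratin of basal epithelial cells, was among the 10 highest newly expressed genes, from 0.125 to 29.6 FPKM (7.83), and was at 2.52 FPKM at day 4 labelled WT. *Perp*, a desmosome gene, rose from 24.9 to 81.4 FPKM, *Dlx3* from 0.607 to 5.11 FPKM and *Grhl3*, a factor of the surface ectoderm, from 3.93 to 8.47 FPKM, the last of which fell from 2.13 to 0.752 FPKM labelled WT. Of 18 surface ectoderm genes 9 passed the level, 6 rose and 1 fell, *Krt17* from 5.75 to 0.341 FPKM. The keratins of the stratified epidermis, *Krt5* and *Krt14*, stayed below 1 FPKM at both days, so the rises do not cover the stratified part of the list.

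Trophectoderm genes were mixed. Of 17 genes 13 passed the level, 7 rose and 3 fell, with a median of 1.39. Labelled WT the median was -2.70 over 8 genes, which are not the same set. Each set was admitted by its own line's levels, so these medians carry no weight as a difference. The median labelled KO was 0.77 with 1 FPKM added, 0.56 above 5 FPKM and 1.81 with no filter on low values. Among the risers *Gata3*, *Gata2* and *Cdx2* were below 1 FPKM at day 2 and entered through their day 4 level. *Gata3* rose from 0.486 to 4.28 FPKM and *Gata2* from 0.641 to 3.94 FPKM, both factors of trophectoderm and of several other tissues. *Cdx2*, the factor that starts the lineage, went from 0.221 to 1.15 FPKM, to a low level. *Esx1* from 2.10 to 7.66 FPKM and *Plac1* from 2.09 to 5.69 FPKM, both X-linked placental genes, rose. *Tfap2c*, shared by trophectoderm, germ cells and ectoderm, stood at 29.0 and 24.9 FPKM and fell from 22.1 to 1.97 FPKM labelled WT. The defining placental genes *Elf5*, *Prl3d1*, *Psg17* and *Tpbpa* stayed below 1 FPKM at both days.

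Endoderm and mesoderm factors appeared at low levels. Of 14 definitive endoderm genes 11 passed the level and 6 rose, among them *Foxa2*, *Foxa1* from 0.196 to 4.77 FPKM and *Sox17* from 0.110 to 4.78 FPKM. Labelled WT *Foxa1* and *Sox17* were at 4.10 and 3.35 FPKM. Of 26 primitive endoderm and yolk sac genes 17 passed the level, 6 rose and 2 fell, beside 14.3% and 8.37% of all loci. *Gata4*, of primitive endoderm and heart, rose from 1.34 to 5.34 FPKM, where it stood at 1.44 FPKM labelled WT, and *Gata6* from 0.269 to 1.46 FPKM. The serum proteins of the yolk sac, *Afp*, *Apoa1* and *Apob*, stayed below 1 FPKM.

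Among 24 mesoderm factors 15 passed the level, 7 rose and 1 fell. *Meox1*, of the somites, went from 0.0721 to 5.41 FPKM (6.17), *Foxc1* from 0.197 to 3.47 FPKM and *Tbx1*, of the pharyngeal region, from 0.256 to 2.41 FPKM. Of 17 primitive streak genes only 5 passed the level, and 4 of them rose, *Cdx1*, *Sp5*, *Wnt3* and *Lhx1* from 0.0562 to 2.28 FPKM. *Eomes* fell from 1.45 to 0.728 FPKM, and *Mesp1* and *Gsc* stayed below 1 FPKM, so that *Cdx1*, *Sp5* and *Wnt3*, which the Wnt pathway also uses, make up most of the rise. The median was 3.40, and 0.0845 with no filter on low values. Of 9 neural crest genes above the level 6 rose and 1 fell. *Ednrb*, an endothelin receptor, rose from 0.283 to 20.7 FPKM (6.14) and *Sox9* from 0.275 to 1.43 FPKM, while *Sox10* stayed below 1 FPKM. Of 22 endothelial and blood genes 10 passed the level, 2 rose, *Gata2* and *Flt1* from 0.462 to 2.38 FPKM, and 3 fell, where 14.3% of all loci rose and 8.37% fell. Both risers were below 1 FPKM at day 2, and the median of -0.23 turned to 0.56 with no filter on low values. The summed level of the 18 feeder markers at day 4 was 81.4 FPKM labelled KO and 24.9 FPKM labelled WT. Its part in the levels of these lists was not tested.

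Of 13 germ cell genes above the level 2 rose, *Stra8* and *Kit* from 3.85 to 16.4 FPKM, and 2 fell, *Dppa3* from 111 to 32.3 FPKM and *Tex19.1* from 36.9 to 10.3 FPKM, where 14.3% of all loci rose and 8.37% fell. The count of rising genes was thus near that of all loci. *Sycp3* and *Ddx4*, of meiosis and the germ line, stood at 14.96 and 10.96 FPKM and at 10.8 and 9.46 FPKM, and neither passed 2-fold. Outside the lists *Rec8*, a meiotic cohesin, was among the 15 largest rises, from 4.14 to 54.6 FPKM (3.67).

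Of 26 cell division genes, all above 1 FPKM, 2 rose and none fell, where 14.3% of all loci rose and 8.37% fell, with a median of -0.25. *Ccnd2*, a D-type cyclin of neural progenitors, went from 4.50 to 183 FPKM (5.29), the third largest rise of genes above 1 FPKM at both days, and labelled WT it reached 523 FPKM. *Cdkn1c*, a cell cycle inhibitor that is imprinted, rose from 18.2 to 53.5 FPKM. Hypoxia and glycolysis genes had a median of -0.82, with 9 of 22 falling, against 8.37% of all loci, and 2 rising. Labelled WT 6 of 22 fell and 2 rose, with a median of -0.51. *Ldha*, lactate dehydrogenase A, fell from 587 to 143 FPKM (-2.10) and stood at 809 and 615 FPKM labelled WT, and *Pgk1* stood at 252 and 139 FPKM (-0.91) against 535 and 601 FPKM. The glucose transporter *Slc2a1* rose from 133 to 324 FPKM.

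Of 21 p53 targets and apoptosis genes 5 rose and none fell, where 14.3% of all loci rose, with a median of 0.35: *Apaf1*, of the apoptosome, from 9.93 to 26.6 FPKM, the death receptor *Fas* from 0.879 to 2.30 FPKM, *Plk2* from 20.04 to 49.01 FPKM, *Casp8* from 0.708 to 1.72 FPKM and, at the limit, *Cdkn1a* (p21) from 51.3 to 108 FPKM. *Pmaip1* (Noxa) stood at 105 and 65.2 FPKM and fell from 82.9 to 8.75 FPKM labelled WT. Levels at day 4 were higher labelled KO in 17 of 21 genes, and in 6275 of 12620 loci over all.

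Of the DNA methylation genes the de novo methyltransferase *Dnmt3a* fell from 47.2 to 16.1 FPKM and its cofactor *Dnmt3l* from 217 to 24.7 FPKM (-3.19), while *Tet3*, a 5-methylcytosine oxidase, rose from 1.29 to 5.43 FPKM. *Dnmt1* and *Tet1* had no usable status in the tables and are not counted. Of 22 imprinted genes above the level 10 rose and 5 fell. *Igf2*, a paternally expressed growth factor, rose from 20.5 to 85.3 FPKM (2.00) and stood at 9.27 and 8.89 FPKM labelled WT. The tables list no *H19* by name, but the transcript NR_001592 lies at its locus in GENCODE (mm9). That neighbour of *Igf2* on chromosome 7, an imprinted noncoding RNA that the count of the list leaves out, rose from 22.6 to 55.4 FPKM (1.24) and fell from 20.996 to 2.20 FPKM labelled WT (-3.34). *Peg10* rose from 27.8 to 173 FPKM and *Mest* from 71.2 to 191 FPKM, and the noncoding *Meg3* from 19.4 to 4.42 FPKM and *Rian* from 86.2 to 36.1 FPKM fell. *Grb10* was lower labelled KO at both days, 20.1 against 53.4 FPKM at day 2 and 42.8 against 299 FPKM at day 4.

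Lists that served as a level control stayed near the centre. None of 16 TFIID genes passed 2-fold, with a median of -0.25, and none of 24 ribosomal protein genes (-0.24) or of 20 respiratory chain genes (-0.42). These medians all lay below 0, and with equal sums they were -0.03, -0.01 and -0.20. They therefore do not favour the centring over that scaling. Labelled WT 1 of 15 TFIID genes rose and 1 fell. *Taf9*, the close paralog of *Taf9b*, stood at 159.6 and 146 FPKM, and *Taf4b* at 6.33 and 4.43 FPKM (-0.57). The mesenchymal list also kept near the centre with a median of 0.22, *Vim* standing at 95.1 and 112 FPKM, while *Zeb2* rose from 0.269 to 2.33 FPKM.

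**Figure D4:**
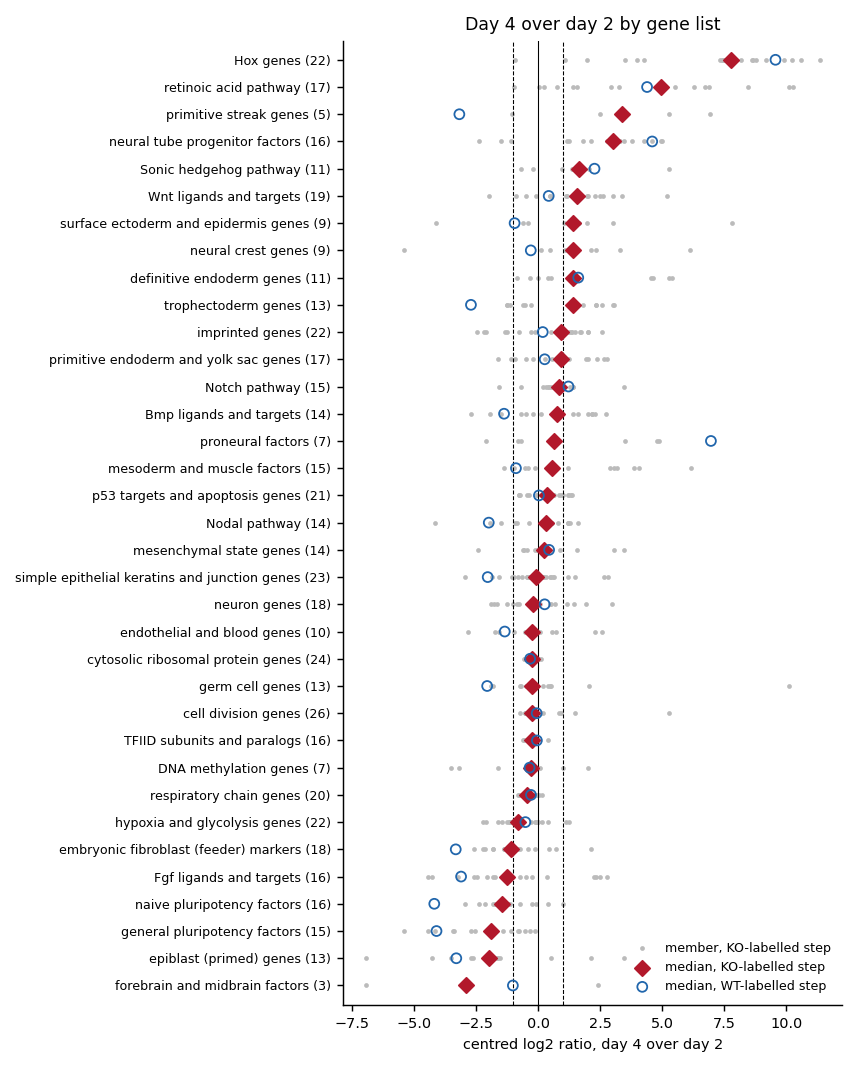
Centred log2 ratio of day 4 to day 2 for 35 lists, with the number of genes kept in parentheses. Grey points are single genes of the KO-labelled step, red diamonds the list medians of that step and blue circles the medians of the WT-labelled step, with dashed lines at 2-fold. The medians run from -2.91 to 7.78 labelled KO. The medians of a list cover the genes kept in each line, which need not be the same set.

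Among genes above 1 FPKM at both days the largest rise was that of *Zfp703*, a corepressor, from 1.30 to 62.4 FPKM (5.53), followed by *Prtg* (protogenin), a receptor of the early neural tube and mesoderm, from 2.10 to 92.5 FPKM (5.41). *Mdk* (midkine), a retinoic acid induced growth factor, reached the highest level of the 15, from 196 to 2441 FPKM (3.58). *Igdcc3* from 2.18 to 47.9 FPKM, *Rgma*, a guidance molecule, from 1.09 to 11.4 FPKM, and *Fzd3*, a Wnt receptor, from 1.15 to 11.8 FPKM, were of the same group, and so were *Baiap2l1* from 1.49 to 31.5 FPKM, *Fndc5* from 1.01 to 16.3 FPKM and *Spsb4* from 2.73 to 27.8 FPKM. All of these rose labelled WT too. *Mt4*, a metallothionein of squamous epithelia, rose from 2.18 to 23.6 FPKM (3.38) and stood at 1.77 and 2.92 FPKM labelled WT. *Gm6548*, from 24.6 to 794 FPKM, is a predicted gene model, which may share reads with a near-identical copy, so its level is uncertain.

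The largest falls of genes above 1 FPKM at both days were those of *Platr10*, a noncoding RNA of pluripotent cells, from 70.6 to 1.95 FPKM (-5.23), *Fgf4*, *Pim2*, a survival kinase, from 143 to 7.23 FPKM (-4.36), and *Trh*, the precursor of thyrotropin-releasing hormone, from 132 to 7.21 FPKM (-4.25). *Penk* (proenkephalin) fell from 23.9 to 1.65 FPKM, *Mt3* from 32.7 to 2.36 FPKM, *Chac1*, a stress-induced glutathione enzyme, from 39.9 to 3.04 FPKM, *Slc7a7*, an amino acid transporter, from 60.03 to 5.77 FPKM, and *Foxi3* from 12.1 to 1.17 FPKM. *Mgp*, an inhibitor of calcification that fibroblasts also make, fell from 102 to 9.52 FPKM and was at 100.2 FPKM at day 6. Among genes that ended below 1 FPKM, *Enpp2* (autotaxin) stood beside *Otx2* with 33.9 FPKM at day 2 and 0.379 FPKM at day 4. *DQ267100*, at 109 FPKM at day 2, was listed at 0 in all other culture libraries, so that it rests on 1 value.

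Many loci that passed 2-fold did so in the same direction in both lines. Of the 1808 loci that rose labelled KO, 1092 rose labelled WT, 60.4% of the first and 61.5% of the second list. Of the 1056 that fell labelled KO, 801 fell labelled WT, 75.9% of the first but 42.8% of the second. The loci that fell labelled WT had a median ratio of -0.91 labelled KO, and 31 loci rose labelled KO and fell labelled WT against 16 the other way. Over 10643 loci above 1 FPKM in all 4 libraries the ratios correlated with a Pearson r of 0.747 and a Spearman rho of 0.709 across loci, which are not independent and whose values at each day come from 1 table.

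Among loci above 1 FPKM in all 4 libraries, the KO-labelled step stood highest above the WT-labelled one for *Fam25c* (0.89 against -3.70), *2210409E12Rik* (2.05 against -2.53), the transcript NR_001592, at the *H19* locus (1.24 against -3.34), and *Esrrb* (-1.48 against -5.68). *Mylpf*, a muscle myosin light chain, stood at 64.2 and 69.1 FPKM and fell from 59.1 to 3.84 FPKM labelled WT, and *Sfn* (stratifin), an epithelial 14-3-3 protein, stood at 34.8 and 23.5 FPKM and fell from 25.3 to 1.10 FPKM. On the other side stood *Olig2*, *Gli1*, *Insm1*, *Id1*, *Btbd17* (0.20 against 3.34), *Fgfr4* (-0.47 against 2.62), the chemokine receptor *Ackr3* (1.94 against 4.46) and the Notch regulator *Dtx4* (1.36 against 3.49).

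**Figure D5:**
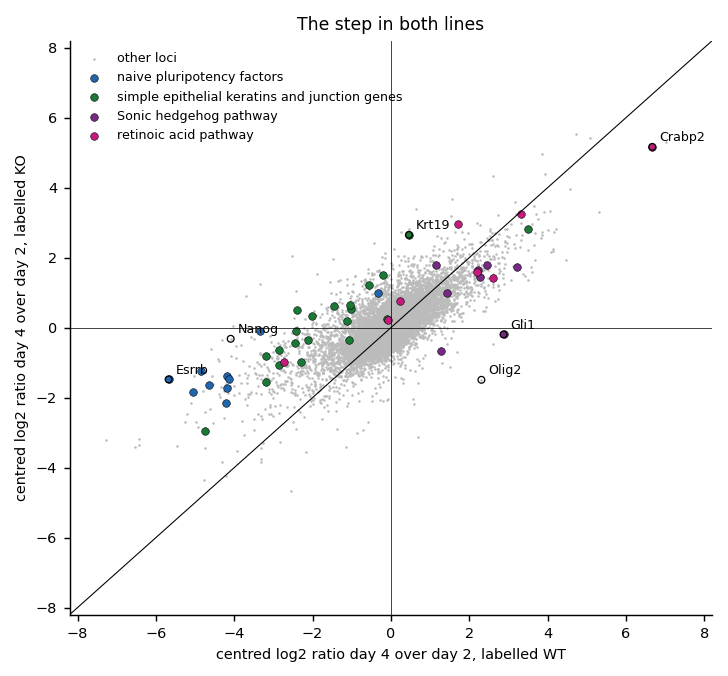
Each point is 1 locus above 1 FPKM in all 4 libraries, with the centred log2 ratio of day 4 to day 2 labelled WT on the x axis and labelled KO on the y axis, and the diagonal marks equal ratios. Most naive pluripotency and epithelial genes lie above the diagonal, with *Esrrb* at -5.68 and -1.48, and *Gli1* lies below it at 2.87 and -0.19.

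TAF9B and RNA POL2 peak lists of EB motor neurons from another wild type clone, HBG3, give a readout that the step did not use. A peak midpoint lay within 500 bp of the start in 18.5% of 1733 loci that rose, 17.4% of 995 that fell and 30.4% of 9450 within 2-fold for TAF9B, and in 31.7%, 21.9% and 56.9% for RNA POL2. The shares of loci past 2-fold were lower than that of the rest in both peak lists, also at a mean level of 5 to 20 FPKM, where the TAF9B shares were 17.1%, 16.8% and 30.6%. Below that range they were 18.2%, 11.2% and 25.4%, and above it 24.3%, 27.7% and 33.1%, a narrower gap. Of all kept loci 27.6% had a TAF9B peak at the start. Of 22 *Hox* genes 5 had one, *Hoxa2*, *Hoxb2*, *Hoxb5* and *Hoxd1* among them. Of 17 retinoic acid genes 2 had one, *Dhrs3* and *Meis1*. Both shares lay below that of all loci. None of the 15 general pluripotency factors and none of the 18 feeder markers had one. The peaks describe the cells they were called in, which the labels name EB motor neurons, not the EBs of day 4. By the paper's methods those EBs were differentiated for longer than any EB RNA library used here.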

How the data were processed

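Poly-A RNA was sequenced from EBs of day 2 and day 4, 1 library per line and day. The authors aligned reads with TopHat to mm9 and made FPKM values with Cuffdiff, 1 table per day, and the deposited tables hold both lines of a day, normalized together. Peaks with a score were called by the authors after alignment with Bowtie. Versions are not given in the sources used here. The tables also hold the authors' fold changes and test values, which were not used, nor were the spinal cord tables.

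Both tables were joined on gene and locus, and 43 rows per table that shared both were left out. RefSeq gave symbols for 98.4% of the 23109 loci, and 4 of 691 list genes were not found by name. Loci above 1 FPKM in at least 1 library and with a status other than HIDATA or FAIL were kept. The log2 ratio of day 4 to day 2 was taken with no pseudocount and centred on the median of loci above 1 FPKM in both. Genes at 0 have no ratio. With 1 library per side there is no test, and depth is unknown. Members and lists were chosen with earlier results of these data known. Named genes were the 15 largest rises and falls above 1 FPKM at both days, the 10 highest newly expressed or lost genes, the 10 largest differences between lines in either direction, list members and *Taf9b*. Some genes that this rule names are not reported here. Peak midpoints within 500 bp of a start were matched, with strand from GENCODE. Alternatives were another scaling, no centring, 1 FPKM added, other filters on low values, status OK in both tables and 1 locus per symbol. The ratio step was tested on simulated data. Python 3.11.15, numpy 2.4.6, pandas 2.3.3 and matplotlib 3.10.9 were used.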

Additional observations from a re-analysis of the deposited data

Results flagged for a closer look

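The results below moved in opposite directions in both lines. None of these differences was tested, since each rests on 1 library per side, and the targeted gene stood against the labels in all culture tables. The median of the primitive streak genes was 3.40 in the KO-labelled step, over 5 genes, and -3.17 in the WT-labelled step, over 7 genes that are not all the same. The 4 rising genes were below 1 FPKM at day 2 and entered through their day 4 level, and with no filter on low values the KO-labelled median was 0.0845, so these medians carry no weight as a difference. That of the trophectoderm genes was 1.39 over 13 genes and -2.70 over 8 genes, and the first was 0.77 with 1 FPKM added and 0.56 above 5 FPKM. Each set was admitted by its own line's levels, so these medians carry no weight as a difference either. *Olig2*, the factor of motor neuron progenitors, had a log2 ratio of -1.49 labelled KO and 2.31 labelled WT. Of other loci, *2210409E12Rik* had 2.05 and -2.53, *AA465934*, a noncoding transcript, -1.01 and 1.31, and NR_001592, the transcript at the imprinted *H19* locus, 1.24 and -3.34. The fall of *AA465934* labelled KO did not pass 2-fold in any of its alternatives, at -0.82 with 1 FPKM added, -0.96 with no centring and -0.79 with equal sums. *Wnt8a* and *Grhl3* were also among the list members that passed 2-fold in opposite directions.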

How the results depend on the processing

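No paired analysis was possible because each group holds 1 library, and for the same reason no library could be left out. Adding 1 FPKM to both values gave 1110 rising loci labelled KO, and medians of 3.57 for *Hox*, -1.45 for forebrain and midbrain, 1.86 for neural tube progenitor, 1.53 for primitive streak, 3.01 for retinoic acid and 0.77 for trophectoderm genes. A level of 5 FPKM gave 934 rising and 679 falling loci labelled KO and 1091 and 1091 labelled WT. Medians were then 2.19 for Bmp, -0.95 for DNA methylation, -1.93 for Fgf, -0.82 for endothelial and blood, -6.93 for forebrain and midbrain, 1.20 for mesoderm, 0.12 for neural crest, 6.92 for primitive streak, -2.09 for proneural and 0.56 for trophectoderm genes. With no filter 4707 loci rose and 2430 fell labelled KO, and 3997 and 4045 labelled WT. Medians were then 0.12 for Bmp, -0.62 for Fgf, 3.51 for *Hox*, 0.56 for endothelial and blood, 0.78 for neural crest, 0.0845 for primitive streak, 1.70 for proneural, 4.10 for retinoic acid and 0.37 for surface ectoderm genes, and 1.20 for forebrain and midbrain genes, which turned from -2.91. With status OK in both tables they were 1.09 for *Hox* genes, of which 3 of 22 were left, -0.13 for mesoderm, 2.15 for neural tube progenitor, -0.74 for proneural and 3.11 for retinoic acid genes. No centring, equal sums and 1 locus per symbol moved none of the 35 list medians by more than 1.5-fold, but equal sums turned the sign of the neuron genes from -0.20 to 0.0215 and that of the keratins and junction genes from -0.09 to 0.13, and 5 FPKM turned the latter to 0.0537. Signs also turned above for endothelial and blood (-0.23 in the report's setting), mesoderm (0.55, with status OK) and proneural genes (0.64, with 5 FPKM and with status OK). Equal sums shifted the median locus labelled WT by 0.193 and the share of rising loci among those past 2-fold from 48.7% to 58.1%. Of 70 named genes 27 moved with 1 FPKM added and none past 2-fold turned its direction; *Gli1*, within 2-fold, went from -0.19 to 0.0278 with equal sums. Unknown depth limits values near 1 FPKM most.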
